A study of Mus musculus with 3 samples.

Results

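The reads described here came from 9 microRNA hairpins of the imprinted Dlk1-Dio3 region on mouse chromosome 12, Mir431, Mir433, Mir127, Mir434, Mir136, Mir379, Mir411, Mir382 and Mir541, and from the strand opposite the Rtl1 gene. These 10 genes were taken by their GENCODE M21 symbols, out of 55450 annotated genes and 2202 annotated microRNA hairpins searched, and they were selected on their read counts in these same libraries, so that their presence is not a finding. The RNA came from fully grown oocytes of mice that had received PMSG, a hormone that stimulates follicles to grow, at 5 IU and 48 hours before they were killed. Strain, age and genotype are not given in the sources used here. Total RNA was cut from polyacrylamide gels in 3 windows, 19-24 nt, 24-30 nt and 19-30 nt, either as the first pair or as the last alone, and all 3 libraries share the cell type and the treatment. There was 1 library per window, called by that window below, so no difference between windows has a replicate check, and every interval below is a 95% interval for counting error only.

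The Dlk1-Dio3 region is imprinted: the protein genes Dlk1, Rtl1 and Dio3 are expressed mainly from the paternal chromosome, and the non-coding RNAs Meg3, Rian and Mirg, with the microRNAs, mainly from the maternal one. A microRNA hairpin is cut by Drosha and Dicer into a duplex, of which the 5p or the 3p arm can be kept by an Argonaute protein. Rtl1, a gene derived from a retrotransposon, lies opposite a maternal transcript that holds several of these hairpins, so that their microRNAs are complementary to the Rtl1 messenger RNA over their whole length and can direct its cleavage.

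The mature sequences below, from RefSeq (GRCm38.p6), are those of the arm with most reads of each hairpin, with the seed (bases 2 to 8) in capitals. All 9 hairpins matched the RefSeq table. No seed was shared among these 9 arms, and each hairpin is on the plus strand. The first 5 lie opposite Rtl1, and the last 4 follow downstream.
miR-431-3p, chr12:109590502-109590523: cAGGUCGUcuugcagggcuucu
miR-433-3p, chr12:109591781-109591802: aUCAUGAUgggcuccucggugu
miR-127-3p, chr12:109592888-109592909: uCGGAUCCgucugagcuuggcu
miR-434-3p, chr12:109594565-109594586: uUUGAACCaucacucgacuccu
miR-136-3p, chr12:109595366-109595387: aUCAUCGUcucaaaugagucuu
miR-379-5p, chr12:109709065-109709085: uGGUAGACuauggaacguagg
miR-411-5p, chr12:109710190-109710210: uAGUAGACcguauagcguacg
miR-382-5p, chr12:109733781-109733802: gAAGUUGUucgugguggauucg
miR-541-5p, chr12:109742422-109742446: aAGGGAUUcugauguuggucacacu

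In RefSeq miR-541-5p is 25 nt long, and the other 8 sequences are 21 or 22 nt long. Among all 18 arms, a shared seed, AUGUAAC, was found for miR-379-3p and miR-411-3p, arms that had 0 and 2 reads in the 19-24 nt window.

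The libraries held 764539 reads (19-24 nt), 1484509 (24-30 nt) and 943811 (19-30 nt), of which 315523, 344044 and 146810 matched an annotated transcript over their first 20 nt. Levels are RPM, reads per 1000000 of these matched reads, and 0 reads leave room for up to 9.51, 8.72 and 20.4 RPM (3 reads). MicroRNAs made up 78.3%, 6.86% and 17.2% of matched reads, so a level in RPM and a share of microRNA reads can order the libraries differently. The first 2 libraries had reads of 26 nt and the last reads of 36 nt, so that window and read length cannot be told apart in comparisons with the last. Fixed lists of microRNAs that mark cell types, among them germ cells such as the oocyte itself, also differed between libraries. The 11 granulosa, theca or stroma microRNAs made up 9.37%, 1.71% and 3.65% of microRNA reads, with 11, 11 and 10 of them detected. The 4 blood microRNAs found made up 1.38%, 0.555% and 0.0593%, with 4, 2 and 3 detected. The 10 found of the germ cell X-linked cluster made up 0.120%, 0.0212% and 2.40%, with 10, 3 and 10 detected. The 6 early embryo microRNAs made up 0.237%, 0.0593% and 4.87%, with 6, 4 and 6 detected. The part of cells other than oocytes in the levels below was not tested.

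The 9 hairpins together had 4095 reads in the 19-24 nt window, 3985 in the 24-30 nt window and 96 in the 19-30 nt window. They made up 1.66% of microRNA reads in the 19-24 nt window (Wilson interval 1.61 to 1.71), 16.9% in the 24-30 nt window (16.4 to 17.4) and 0.380% in the 19-30 nt window (0.311 to 0.464). A single hairpin set the middle value. Mir541 held 15.9% of the reads of the 9 in the 19-24 nt window (14.8 to 17.05), 95.7% in the 24-30 nt window (95.1 to 96.3) and 31.3% in the 19-30 nt window (22.9 to 41.1).

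**Figure D1:**
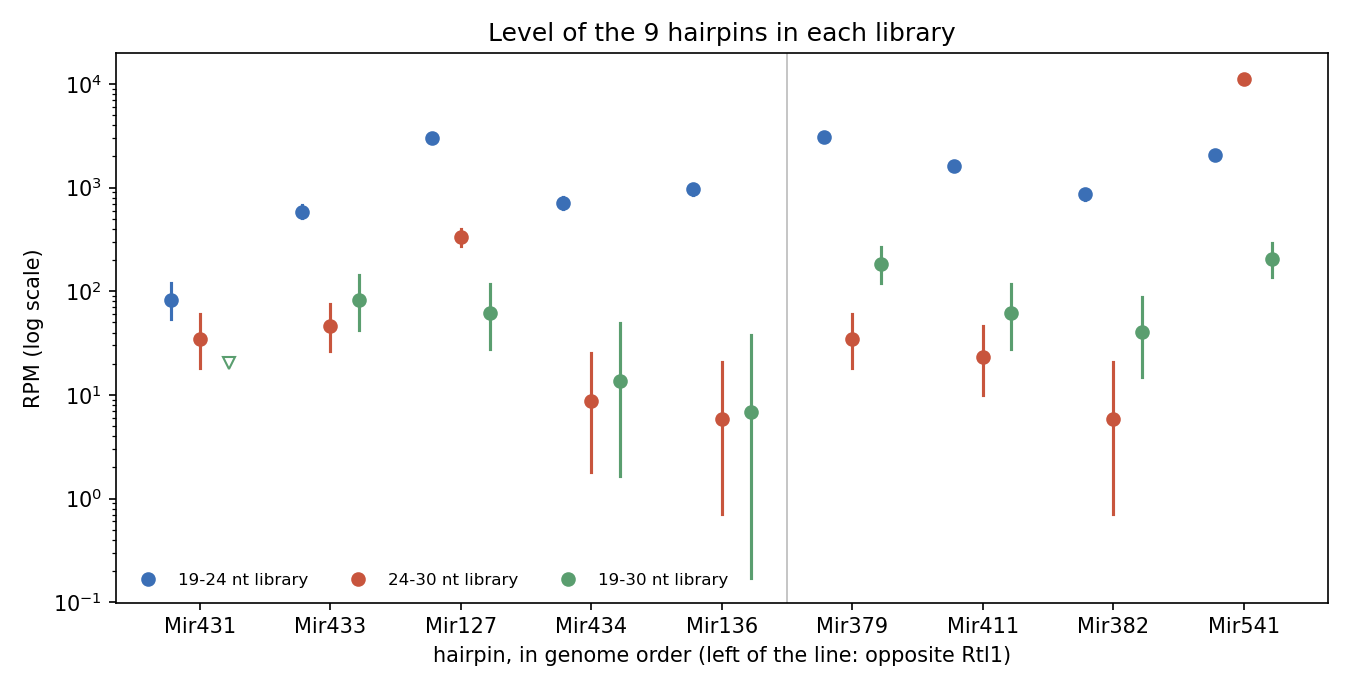
Levels of the 9 hairpins (RPM, log axis) in the 19-24, 24-30 and 19-30 nt windows, 1 library each. Bars are exact Poisson 95% intervals for counting error, and the open triangle stands for 0 reads, drawn at the RPM that a count of 0 allows. Mir541 was at 11089 RPM in the 24-30 nt window, while the other 8 hairpins had their highest level in the 19-24 nt window.

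The 5 hairpins opposite Rtl1 come first along the chromosome. Mir127, whose 3p product is a known guide for Rtl1 cleavage, had 952, 115 and 9 reads in the 19-24, 24-30 and 19-30 nt windows, or 3017, 334 and 61.3 RPM. Mir136 had 304, 2 and 1 reads, or 963, 5.81 and 6.81 RPM. Mir434 had 223, 3 and 2 reads, or 707, 8.72 and 13.6 RPM. These 3 were highest in the 19-24 nt window. Mir433 had 185, 16 and 12 reads, or 586, 46.5 and 81.7 RPM, again highest in the 19-24 nt window. Mir431 was the scarcest of the 9, with 26, 12 and 0 reads, or 82.4, 34.9 and 0 RPM.

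Of the 4 hairpins downstream, Mir379 and Mir411 lie between annotated genes, Mir382 overlaps an exon of the non-coding RNA gene Mirg in part, and Mir541 lies in a Mirg intron. Mir379, the first hairpin of a long array of microRNAs, had 969, 12 and 27 reads in the 19-24, 24-30 and 19-30 nt windows, or 3071, 34.9 and 184 RPM. Mir411 had 512, 8 and 9 reads, or 1623, 23.3 and 61.3 RPM. Mir382 had 273, 2 and 6 reads, or 865, 5.81 and 40.9 RPM. All 3 had their highest level in the 19-24 nt window and their lowest in the 24-30 nt window. Mir541 had 651, 3815 and 30 reads, or 2063, 11089 and 204 RPM, and was the only one of the 9 with its highest level in the 24-30 nt window. Among all annotated hairpins it ranked 64 in the 19-24 nt window with 0.264% of microRNA reads, 1 in the 24-30 nt window with 16.2% (15.7 to 16.6) and 94 in the 19-30 nt window with 0.119%.

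Within the 19-24 nt window the order was Mir379, Mir127, Mir541, Mir411, Mir136, Mir382, Mir434, Mir433 and Mir431. Mir379 and Mir127 did not differ beyond counting error, with a ratio of their reads of 1.02 (0.930 to 1.11). The same held for Mir136 and Mir382 (1.11, 0.943 to 1.32) and for Mir434 and Mir433 (1.21, 0.987 to 1.47). The gap between Mir433 and Mir431 was 7.12-fold (4.70 to 11.2). In the 24-30 nt window Mir541 had 33.2 times the reads of Mir127 (27.6 to 40.3) and Mir127 had 7.19 times those of Mir433 (4.24 to 13.0), and below these no neighbours differed beyond counting error. In the 19-30 nt window only Mir379 and Mir433 did so (2.25, 1.10 to 4.88).

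The gel windows were then compared by the ratio of RPM, with a conditional binomial interval. The 9 hairpins together were at 12979 RPM in the 19-24 nt window and 11583 RPM in the 24-30 nt window, a ratio of 1.12 (1.07 to 1.17). As a share of microRNA reads the direction turned, with a ratio of 0.0982 (0.0940 to 0.103), and it also turned when only reads with a single match were counted in hairpins and totals (0.856) or when the whole insert had to match (0.896). Without Mir541 the other 8 hairpins were at 10915 RPM in the 19-24 nt window and 494 RPM in the 24-30 nt window, a ratio of 22.1 (18.9 to 25.9), or 1.94 by share of microRNA reads (1.66 to 2.27). Mir541 went the other way, with a ratio of 0.186 (0.171 to 0.202). The 5 hairpins opposite Rtl1 gave 12.5 (10.5 to 14.8), and by share of microRNA reads 1.09, with an interval that included 1 (0.922 to 1.30). Mir379, Mir411 and Mir382 together gave 86.9 (57.2 to 139), and 7.62 by share of microRNA reads (5.02 to 12.2).

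Singly, 8 of the 9 hairpins were at least 2-fold higher and 1, Mir541, at least 2-fold lower in the 19-24 nt than in the 24-30 nt window. Over all 317 microRNA hairpins with at least 10 reads in the pair, 85.8% were at least 2-fold higher and 8.83% at least 2-fold lower, so the 8 stood with the bulk of microRNAs. The median ratio was 69.8 over the 9 and 11.8 over all 317. The ratio was 9.03 for Mir127 (7.43 to 11.1), 12.6 for Mir433 (7.56 to 22.5) and 2.36 for Mir431 (1.15 to 5.14). By share of microRNA reads 5 of the 9 were at least 2-fold higher and 2, Mir431 and Mir541, at least 2-fold lower, against 37.2% and 32.2% of the 317 hairpins. On that scale Mir127 (0.791) and Mir431 (0.207) changed direction, and Mir433 was at 1.11 (0.663 to 1.97). Mir379 gave 88.0 (50.2 to 171), and the ratios of Mir136, Mir382 and Mir434 have only 2, 2 and 3 reads below the line.

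Against the 19-30 nt window, which also spans the usual microRNA lengths, all 9 hairpins were at least 2-fold higher in the 19-24 nt window. Of the 334 hairpins tested there, 63.5% were at least 2-fold higher and 24.9% at least 2-fold lower, and the median ratio was 21.2 over the 9 and 3.56 over all. The 9 together were at 12979 RPM in the 19-24 nt window and 654 RPM in the 19-30 nt window, a ratio of 19.8 (16.2 to 24.6), or 4.36 by share of microRNA reads (3.57 to 5.40). Mir127 was 49.2-fold higher (25.8 to 108), Mir379 16.7-fold (11.4 to 25.5) and Mir541 10.1-fold (7.004 to 15.1). Mir431 had 0 reads in the 19-30 nt window. Against a floor of 3 reads in that library it was 4.03-fold higher, and its conditional binomial interval began at 3.05. At that floor its ratio was 0.887 by share of microRNA reads, which sets no direction, and 1.91 with only single matches, under 2-fold. By share of microRNA reads 7 of the 9 were at least 2-fold higher and 0 at least 2-fold lower, against 28.7% and 40.7% of the 334 hairpins, and Mir433 was at 1.58 (0.882 to 3.11).

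Which arm was kept split these 9 hairpins by position, and arms were counted for these 9 only. All 5 hairpins opposite Rtl1 had mostly 3p reads, and all 4 downstream hairpins mostly 5p reads. In the 19-24 nt window the 3p arm held 25 of 26 reads of Mir431, 177 of 185 of Mir433, 849 of 952 of Mir127, 189 of 223 of Mir434 and 274 of 304 of Mir136. Mir434 kept the most 5p reads of these, 15.2% (11.1 to 20.6), and Mir433 4.32% (2.21 to 8.30). The 5p arm held 969 of 969 reads of Mir379, 510 of 512 of Mir411, 267 of 273 of Mir382 and 651 of 651 of Mir541. In the 24-30 nt window all 3815 reads of Mir541, and in the 19-30 nt window all 30, were again 5p.

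**Figure D2:**
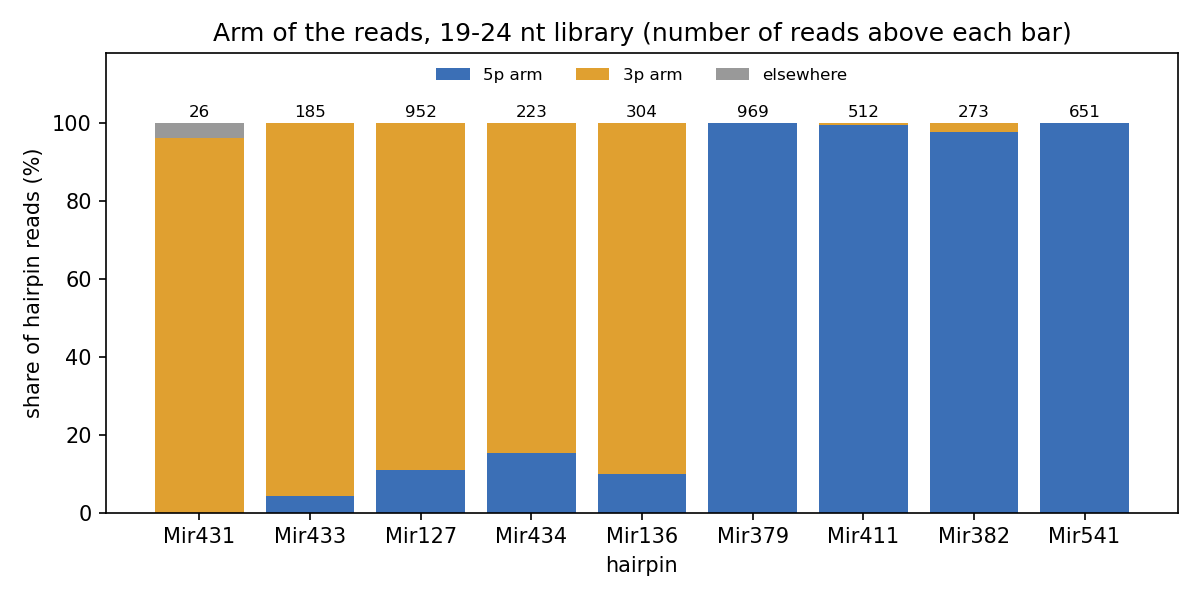
Share of each hairpin's reads (%) on the 5p arm, the 3p arm or elsewhere in the 19-24 nt window, with the number of reads above each bar. The 5 hairpins on the left, opposite Rtl1, were mainly 3p and the 4 on the right mainly 5p.

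The first base of the read sets the seed, and it was sharp for some hairpins and spread for others. Mir379 had 967 of 969 reads and Mir541 645 of 651 reads at the RefSeq start in the 19-24 nt window, and in the 24-30 nt window Mir541 had 3799 of 3815. Mir136 was the most divided of the abundant ones: 125 of its 3p reads began at the RefSeq start and 121 began 1 nt upstream, which shifts the seed by 1 base. Mir411-5p had 413 reads at the RefSeq start and 90 that began 1 nt upstream. Mir382-5p had 210 at the start and 50 that began 1 nt downstream. Mir431-3p had 15 reads at the start and 8 that began 2 nt upstream.

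Reads antisense to Rtl1 numbered 1690 in the 19-24 nt window, 148 in the 24-30 nt window and 25 in the 19-30 nt window, or 5356, 430 and 170 RPM. Of these 1863 reads, 1862 (99.9%, 99.7 to 99.99) lay inside Mir431, Mir433, Mir127, Mir434 and Mir136. In the 19-24 and 24-30 nt windows all of them did, 1690 and 148, and in the 19-30 nt window 24 of 25. The exception was an 18 nt read at chr12:109590441-109590458, which starts just before the annotated Mir431 hairpin. Sense reads of Rtl1 numbered 0, 0.5 and 0, the fraction being a read shared with another place.

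Over the 3 libraries together, Mir127 gave 57.8% of the antisense reads (55.5 to 59.98), Mir136 16.5% (14.9 to 18.2), Mir434 12.2% (10.8 to 13.8), Mir433 11.4% (10.1 to 13.0) and Mir431 2.04% (1.49 to 2.79). The make-up differed between libraries. Mir127 gave 56.3% of antisense reads in the 19-24 nt window (54.0 to 58.7), against 77.7% in the 24-30 nt window (70.3 to 83.7). Mir136 gave 17.99% in the 19-24 nt window, against 1.35% in the 24-30 nt window, and Mir434 gave 13.2% in the 19-24 nt window, against 2.03% in the 24-30 nt window. In the 19-30 nt window Mir433 led with 12 of 25 reads, and Mir127 had 9.

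All 5 hairpins lie within the coding sequence of Rtl1, in its exon 2 (coding sequence chr12:109590172-109595403, minus strand), and none of them in a UTR. Mir431 spans chr12:109590447-109590537, Mir433 chr12:109591715-109591838, Mir127 chr12:109592846-109592915, Mir434 chr12:109594506-109594599 and Mir136 chr12:109595327-109595388. Their summed length is 441 nt. Another annotated plus-strand hairpin within this coding sequence, Mir432 (chr12:109594956-109595030), had 0 reads. The antisense reads began at 33 distinct positions, of which 32 were inside the 5 hairpins. Apart from the 1 read that starts before Mir431, the sequence outside these hairpins was not seen at this depth. Of 127 coding genes with at least 100 antisense reads over the 3 libraries, 3.15% had at least 95% of them inside annotated microRNA hairpins. These 4 genes were Cd46, Rtl1, Nlrp12 and Smarcd3, and Rtl1, chosen for this pattern, is counted among them.

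**Figure D3:**
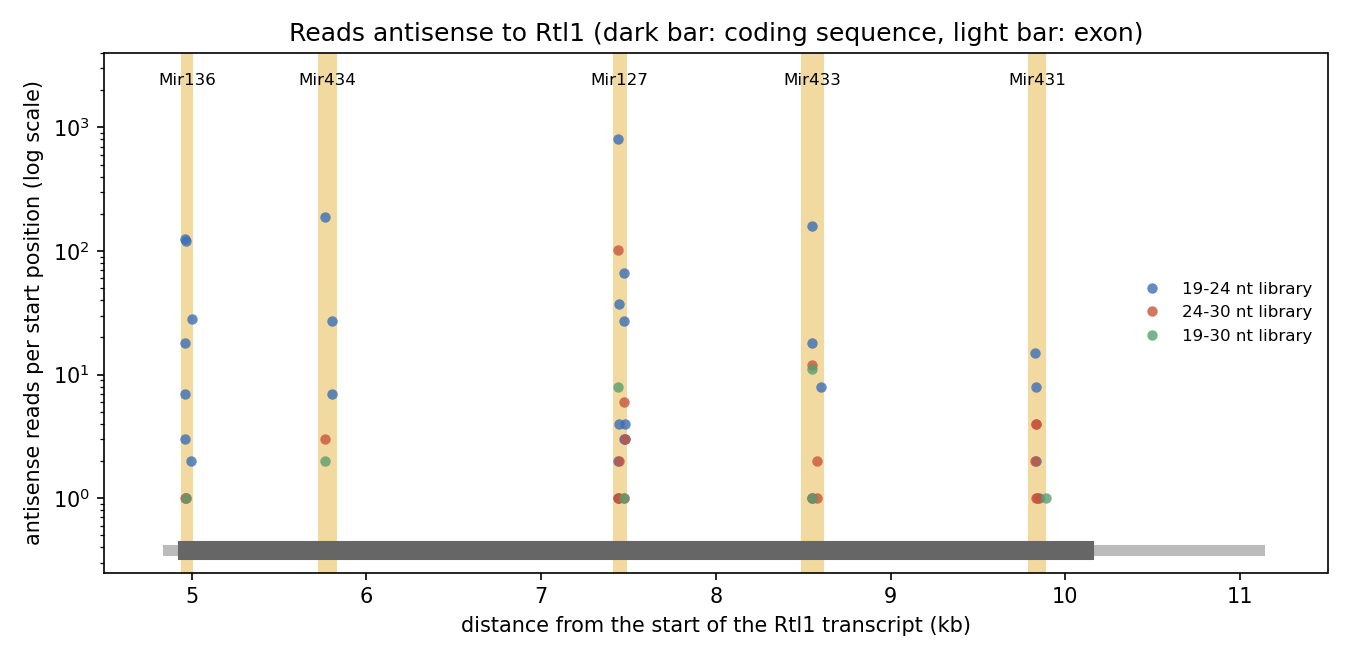
Antisense reads per start position (log axis) against the distance from the start of the Rtl1 transcript (kb), by library. Shaded bands are the 5 hairpins, the dark bar is the Rtl1 coding sequence and the light bar the rest of its exon 2. Reads stand at 33 positions, 32 of them in the bands.

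Mir541 gave long reads. In the 19-30 nt window the 36 nt reads size inserts up to 30 nt where the linker was found. It had 30 such Mir541 reads: 4 of 21 nt, 1 of 22 nt, 1 of 23 nt, 5 of 24 nt, 10 of 25 nt, 4 of 26 nt, 4 of 27 nt and 1 of 29 nt. Another 5 Mir541 reads of this library, with no linker found, were set aside. The mean was 24.7 nt, and 19 of the 30 reads were 25 to 30 nt long. In the same library Mir379 had 17 of 27 reads at 21 nt and Mir433 had 10 of 12 at 22 nt. At 25 to 30 nt Mir127 had 2 of 9 reads and Mir379 1 of 27. Mir433, Mir411 and Mir382 had 0 of 12, 0 of 9 and 0 of 6, and Mir434, Mir136 and Mir431, with 2, 1 and 0 reads in all, are too few to show a length.

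In the 26 nt reads an insert shows its end only when it is 22 nt or shorter, and a read with no linker found was taken as 23 nt or longer. By that measure 80.6% of Mir541 reads were long in the 19-24 nt window (77.4 to 83.5) and 99.9% in the 24-30 nt window (99.7 to 99.96). Among the other 8 hairpins in the 19-24 nt window this share ran between 18.4% for Mir434 and 53.8% for Mir431. The share counts any missed linker as a long insert, so lengths were also read by fitting bases 22 to 26 to the hairpin followed by the linker. Of 595 Mir541 reads sized in this way in the 19-24 nt window, 305 (51.3%, 47.2 to 55.3) were 25 nt or longer, and of 2942 in the 24-30 nt window 2883 (98.0%, 97.4 to 98.4) were. In the 19-24 nt window the same fit put 0.544% of 735 sized Mir127 reads at 25 nt or longer. For Mir379 it was 1.03% of 583 and for Mir411 0.995% of 402. Outside these shares are reads with no single fit, 207 of Mir127, 377 of Mir379 and 100 of Mir411, against 44 of Mir541. In the 24-30 nt window, whose cut selects long inserts, few reads of the other hairpins could be sized. Of these, 4 of 7 of Mir411, 2 of 5 of Mir431, 2 of 6 of Mir433 and 2 of 14 of Mir127 were 25 nt or longer. For Mir379, Mir434, Mir136 and Mir382 it was 0 of 4, 0 of 3, 0 of 2 and 0 of 2.

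**Figure D4:**
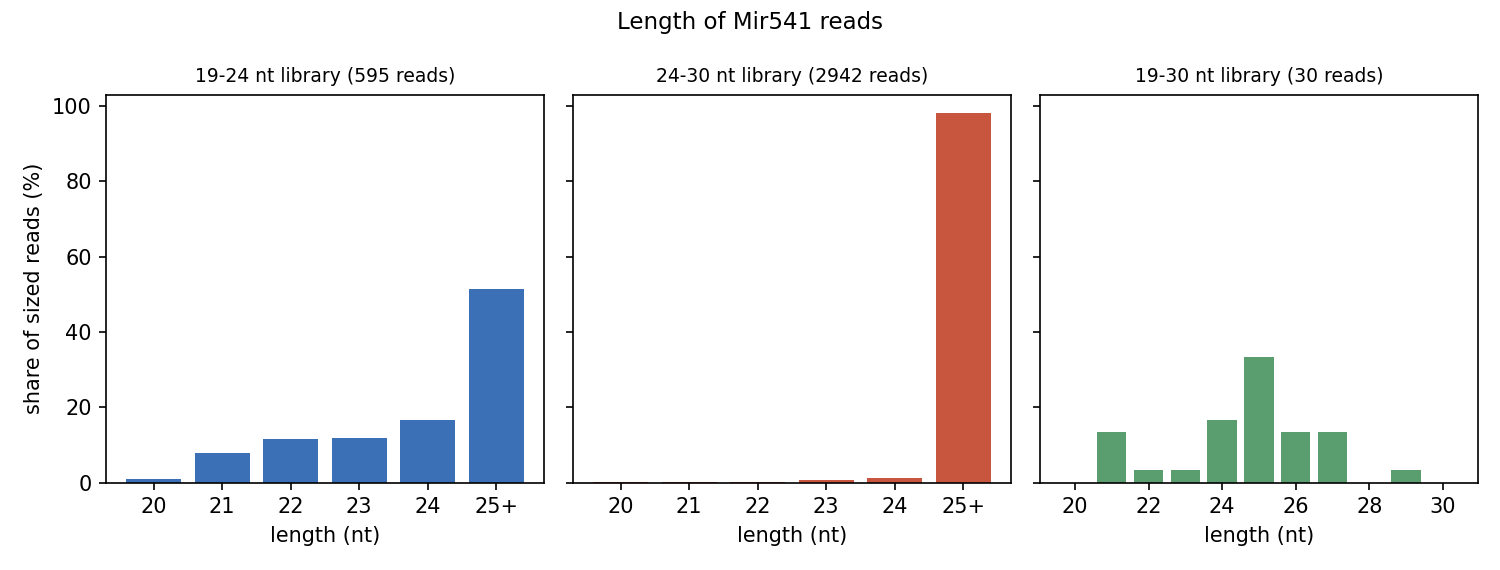
Length of Mir541 reads (nt) as a share of sized reads (%). In the 26 nt reads of the 19-24 and 24-30 nt windows lengths come from the fit to hairpin and linker and end at 25 nt or longer, which held 51.3% and 98.0%; the 19-30 nt window was sized up to 30 nt and had its mode at 25 nt.

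The main Mir541 reads show where its product ended. Capitals mark bases that differ from the hairpin, the number of reads follows in the text, and base 21, at which base calls failed in these runs, is given as in the hairpin.
Mir541 read as hairpin, both windows: aagggattctgatgttggtcacactc
Mir541 read with T at the end, 24-30 nt window: aagggattctgatgttggtcacactT
Mir541 read with A at the end, 24-30 nt window: aagggattctgatgttggtcacactA
Mir541 read of a 24 nt insert followed by linker, 19-24 nt window: aagggattctgatgttggtcacacCT

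In the 19-24 nt window the first form had 257 reads and the last 73. In the 24-30 nt window the first form had 2526 reads, the second 405 and the third 219. The hairpin and the linker both have C at base 26, so the first form can be an insert of 25 nt or a longer one. Of 304 reads of the 19-24 nt window that matched the hairpin over bases 22 to 25, 3 had T and 0 had A at base 26. Of 3158 such reads in the 24-30 nt window, 12.8% had T (11.7 to 14.0) and 6.93% had A (6.10 to 7.87). Another 44 of the 304 had G, as a 23 nt insert followed by the linker would. A T or A at base 26 of these reads is not the linker's and needs an insert of at least 26 nt. Such inserts lie above the nominal 19-24 nt cut, so the windows are not compared on these bases. That cut was not sharp, since 51.3% of sized Mir541 reads in its library were 25 nt or longer. The source of these bases was not tested.

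Mir127 reached the 24-30 nt window with another kind of end. In the 19-24 nt window 879 of its 952 reads were tested, though only 428 were taken as 23 nt or longer. Of these 879, 3 (0.341%, 0.116 to 0.999) had only A or T at bases 23 to 26 that matched neither hairpin nor linker. In the 24-30 nt window 76 of 112 tested reads (67.9%, 58.7 to 75.8) had such an end. Such an end needs an insert of at least 26 nt, above the nominal 19-24 nt cut. The windows therefore limited this contrast in advance. The 24-30 nt cut also lies above the 22 nt of miR-127-3p, so its share describes the forms that this window let in. In the 19-30 nt window, which spans both, 0 of 9 tested Mir127 reads had such an end. Over all hairpins there, 0.493% of 13596 tested reads had one. The most frequent forms in the 24-30 nt window follow, with the bases outside the hairpin in capitals.
Mir127 read, 13 reads: tcggatccgtctgagcttggctTTTT
Mir127 read, 9 reads: tcggatccgtctgagcttggctTTTA
Mir127 read, 8 reads: tcggatccgtctgagcttggctTTAA
Mir127 read, 5 reads: tcggatccgtctgagcttggctTTAT

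Each of these begins with the miR-127-3p sequence shown above, and all bases are given as read. Such ends were not particular to Mir127: in the 19-24 nt window the median share was 0 over 170 hairpins with at least 10 tested reads. Of 74 such hairpins in the 24-30 nt window, 20.3% had them on at least 50% of reads, the median was 10.4%, and Mir127 ranked 4. Mir433 had 1 of 176 reads of this kind in the 19-24 nt window, against 4 of 16 in the 24-30 nt window. Mir541 cannot be set beside them, since its 25 nt product has hairpin bases there. The neighbour Mir134 had 5 of 325 in the 19-24 nt window and 82 of 166 in the 24-30 nt window, and Mir409 had 1 of 170 in the 19-24 nt window and 31 of 49 in the 24-30 nt window. The source of these bases was not tested.

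**Figure D5:**
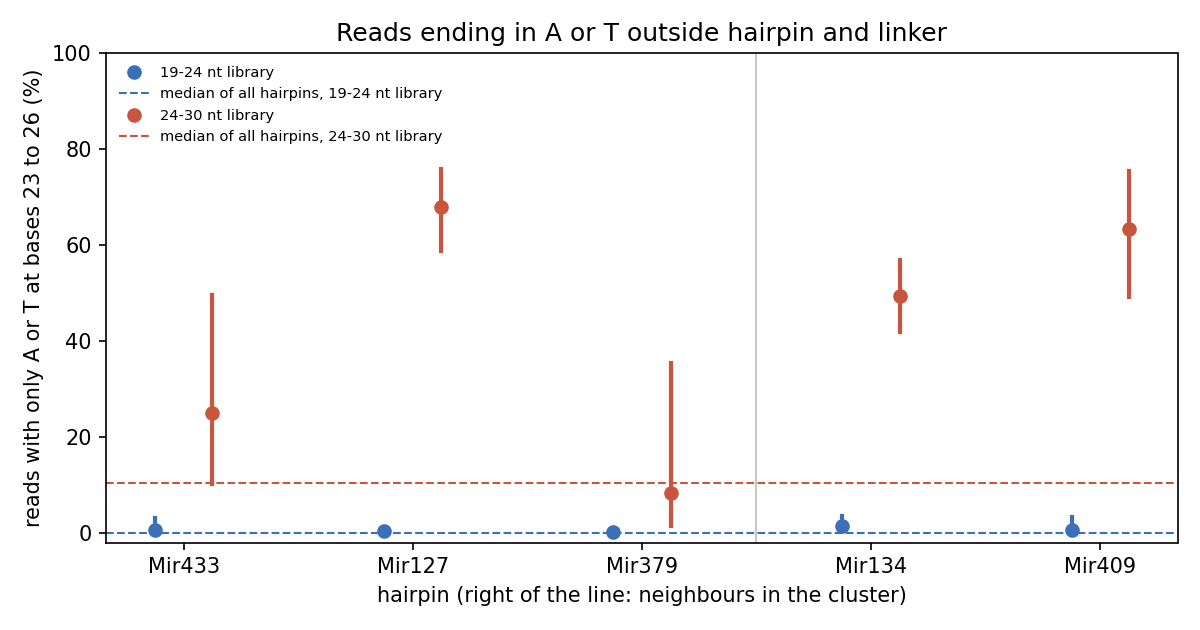
Share of tested reads (%) with only A or T at bases 23 to 26, outside hairpin and linker, in the 19-24 nt and 24-30 nt windows. Points are shares with Wilson 95% intervals and dashed lines the medians of all hairpins with at least 10 tested reads. Mir127, Mir134 and Mir409 lay between 49.4% and 67.9% in the 24-30 nt window. Inserts that could show such ends are longer than the nominal 19-24 nt gel cut, and the 24-30 nt cut selects long inserts.

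The rest of the cluster gives the setting of the 9. Between the starts of Meg3 and Dio3, 67 hairpins are annotated, of which 58 are others, 43 of these with a read and 31 with at least 10. The 9 held 56.2% of all cluster hairpin reads in the 19-24 nt window, 91.3% in the 24-30 nt window and 51.3% in the 19-30 nt window. In RPM, 29 of the 31 were at least 2-fold higher in the 19-24 than in the 24-30 nt window, against 85.8% of all 317 hairpins. Their median ratio, 11.8, was that of all 317. Over the 19-30 nt window, where 13 of the 31 had 0 reads, 26 of 28 tested were at least 2-fold higher, against 63.5% of 334. On the scale of microRNA share, 8 of the 31 were at least 2-fold higher and 11 at least 2-fold lower in the 19-24 than in the 24-30 nt window. The shares over all 317 were 37.2% and 32.2%. Over the 19-30 nt window 15 of the 28 were higher and 6 lower in this way, against 28.7% and 40.7% of 334. By share of microRNA reads the other cluster hairpins together had a ratio of 0.807 (0.725 to 0.900) for the 19-24 over the 24-30 nt window. Most reads among them went to Mir134, with 361, 170 and 2 reads, Mir665 with 291, 27 and 3, Mir409 with 220, 62 and 15, and Mir369 with 250, 2 and 10. Mir300, Mir370, Mir299a, Mir154, Mir494 and Mir376a followed with 165 to 230 reads each in the 19-24 nt window.

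Dlk1, the paternally expressed ligand-like gene at the start of the region, had 0 reads in all 3 libraries. Dio3, a deiodinase gene, had 1, 0 and 1 sense reads. Meg3 had 14.0, 11.9 and 1.01 weighted sense reads, of which 14, 7.5 and 0 lay inside annotated hairpins. Rian had 6.54, 50.6 and 2.80. Mirg had 553, 176 and 4 sense reads, of which 544, 174 and 4 lay inside annotated hairpins, while no Rian read did. The 23 snoRNA genes of the interval, 13 of them with a read, had 23.5, 272.5 and 8.5.

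Among 185 microRNA hairpins with at least 100 reads over the 3 libraries, the pattern most like that of the 9 summed was that of Mir181b-2, Mir181b-1 and Mir351, at distances of 0.62, 0.66 and 0.79 in centred log2 RPM. The Mir541 pattern was nearest to that of 3 hairpins with shared reads, Gm23935, Gm24245 and Gm24270, at 0.96. These distances rest on 3 libraries and are a description.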

How the data were processed

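What was deposited is of another kind than a count table: reads with a quality for each base, the 3' linker still on them. Per the labels, RNA from gel windows received adapters and was read on an Illumina 1G machine after RT-PCR; which aligner, filter or genome build the authors used is not stated in the labels. Counts were made here, in place of a deposited unit.

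The linker was learnt from the reads and trimmed with at least 4 called bases (26 nt reads) or 6 (36 nt reads) and up to 20% mismatches. The 36 nt reads with no linker were set aside. This left 680597 (19-24 nt), 1423118 (24-30 nt) and 438774 (19-30 nt) inserts of 18 nt or more. Their first 20 nt had to match 1 of 141767 GENCODE M21 transcripts (GRCm38) perfectly, on either strand, and reads were weighted by 1 over their places, with more than 1000 places set aside. Nuclear tRNA and rRNA were not entered, so RPM is per 1000000 reads matched to these transcripts. Close family members outside the 9 share reads. Intervals are Poisson, Wilson or conditional binomial; reads carry no molecular identifiers, so intervals and floors cover counting error only. Python 3.11.15, numpy 2.4.6, pandas 2.3.3, scipy 1.17.1 and matplotlib 3.10.9 were used, and trimming was tested on simulated data.

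The members and lists were chosen with earlier results of these data known. All 10 members were named; of other cluster hairpins the 10 with most reads were named, and of other hairpins the 3 nearest in centred log2 RPM. Cd46, Nlrp12 and Smarcd3 were named after their values were seen. The length fit, the end bases, the comparison without Mir541, usable inserts as denominator and the counting of 36 nt reads without a linker were chosen after seeing the data. The other alternatives were matching, weighting, mismatches, distinct inserts, the microRNA share and the linker overlap.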

Additional observations from a re-analysis of the deposited data

Results flagged for a closer look

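Reads of the 9 hairpins were also found among reads that the comparisons above leave out. Among the 36 nt reads of the 19-30 nt window in which no linker was found, 36 came from the 9 hairpins, against 96 that were counted, and 14 of the 36 were Mir379. At a looser match of at least 60% of linker bases, 33 of the 36 showed the start of a linker and 3 did not. There are no control samples, and 36 is above the 3 reads that a count of 0 allows, which shows only that such reads are present. Over all matched reads, 53220 were set aside in this way and 146810 were counted. That proportion is close to the one for the 9 hairpins, so the set-aside reads are not particular to them. Counting these reads moved the ratio of the 9 hairpins in the 19-24 over the 19-30 nt window to 19.7.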

How the results depend on the processing

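The ratio of the 9 hairpins in the 19-24 over the 24-30 nt window, 1.12, turned to 0.856 with only single matches, 0.896 with whole inserts and 0.0982 as a share of microRNA reads. It moved to 1.19 with the first 18 nt, 1.36 with up to 1 mismatch, 3.89 with distinct inserts, 2.15 per usable insert and 22.1 without Mir541. The ratio over the 19-30 nt window, 19.8, moved to 9.42 with only single matches, 4.36 as a share of microRNA reads and 27.5 per usable insert. The share of Mir541 reads counted as at least 23 nt, 80.6% in the 19-24 nt window, moved to 67.5% with whole inserts, 85.8% with distinct inserts and 97.5% with a linker overlap of 6 bases; in the 24-30 nt window, 99.9%, it moved to 98.5% with distinct inserts and 100% with an overlap of 6. For the removal of Mir541 the shift follows from the reads left out. For the share of microRNA reads, usable inserts and single matches the ratios shift with the denominator, since the counts of the hairpins stayed the same. For the others the cause was not tested. The share of Rtl1 antisense reads inside the 5 hairpins stayed within its interval under each alternative run. Of 162 alternative values for 18 ratios of single hairpins, 121 stayed within the counting interval, 39 moved outside it and 2 changed direction, Mir127 (0.791) and Mir431 (0.207), both in the 19-24 over the 24-30 nt window as a share of microRNA reads. No paired analysis was possible because each window has 1 library. Depth limits 7 hairpins in the 24-30 nt window, with 2 to 16 reads each, and all 9 in the 19-30 nt window, with 0 to 30.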
